A study of Bos taurus with 8 samples.

Results

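The nucleus-encoded subunits of respiratory complex I were followed in bovine granulosa cells collected in summer and in winter. Members were chosen by name alone, as the genes whose symbol is NDUFA, NDUFB, NDUFC, NDUFS, NDUFV or NDUFAB followed by a number, with the assembly factors (NDUFAF) left out. This gave 38 of the 26804 genes in the table. The name rule itself uses no measured value, but it was set with earlier results of these data known. All 38 lay above the expression threshold of the study (zFPKM, a z-score of log2 expression, above -3) in all 8 libraries.

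Complex I (NADH:ubiquinone oxidoreductase) takes electrons from NADH, passes them along a chain of iron-sulfur clusters to ubiquinone and pumps protons out of the mitochondrial matrix. It is built from modules: the N module oxidises NADH, the Q module reduces ubiquinone, and the membrane arm, which pumps protons, is assembled from parts named ND1, ND2, ND4 and ND5 after the mitochondrially encoded proteins they hold. Most subunits are made from nuclear genes and imported, a few are made from mitochondrial DNA, and the conserved core subunits that carry the cofactors and the pump are surrounded by accessory subunits that stabilise them. Granulosa cells line the follicle, exchange metabolites with the oocyte and make steroid hormones, whose first step takes place inside mitochondria.

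The study asked how seasonal heat load alters the transcriptome of these cells in beef cows. Multiparous, non-pregnant and non-lactating Bos taurus cows, called Angus in the sample record and crossbred in the methods, were kept as a single herd, and each season's follicles were grown with an intravaginal progesterone device (CIDR) and FSH, then aspirated by ovum pick-up (OPU). Both seasons therefore share the hormone treatment, and season is the only labelled difference. The 4 summer libraries carry the replicate numbers 1, 2, 3 and 5 and the 4 winter libraries the numbers 1, 3, 4 and 5, and each was made from the pooled RNA of a pair of cows. Which cows make up which pool is not given, and since each season stands for a single OPU session, an effect of the session cannot be told apart from that of season. Sample record and methods disagree about the RNA kit, the genome build and the month of the winter collection.

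Values were deposited as TPM, a measure of transcript abundance corrected for gene length, with each library summing to 1000000 and no number of reads per library, so that the counting error behind a value is unknown. Protein-coding mitochondrial genes held 50.7% to 87.7% of the TPM in summer and 85.1% to 92.0% in winter. They were therefore left out of the total before seasons were compared, the rest was set to 1000000, and a trimmed-mean factor was applied (scaled TPM). Granulosa markers were present in every library, *FSHR*, *CYP19A1*, *INHA*, *AMH* and *FOXL2* among them, with a summed level of 30995 to 81697 scaled TPM over 17 genes in summer and 15163 to 20470 in winter. Of the 17, 11 were higher and 0 lower in summer, beside 11.0% and 10.2% of all tested genes. *CYP19A1* (log2 fold change of 0.69, limma adjusted p = 0.0898) and *FOXL2* (-0.75, 0.0992) did not pass, and *FOXL2* was among 3 of the 17 with a log2 fold change below 0. Of 13 pan-leukocyte genes 12 were lower in summer (summed level 43.3 to 144 against 365 to 664), as were the 3 tested of 6 red blood cell genes (39.3 to 99.1 against 566 to 42418), 5 of 9 fibroblast and matrix genes (513 to 1147 against 1004 to 2524) and 4 of 7 epithelial genes (647 to 1514 against 1451 to 4237). In the same lists *LUM*, a matrix proteoglycan (log2 fold change of 1.22, limma adjusted p = 0.0203), and *EPCAM*, an epithelial adhesion molecule (2.49, 0.0248), were higher in summer. Of 5 tested oocyte genes *ZP2*, *ZP3* and *GDF9* were higher in summer, with a summed level over the list of 9.12 to 15.9 against 0.468 to 1.49 scaled TPM, and none of 5 endothelial and 3 tested theca genes passed or had an unadjusted p under 0.05 (limma). No gene of these lists was at 0 in every library. Markers of other cell types thus moved with season beside every result that follows, and their part in those results was not tested. In bulk RNA, fewer cells of a type and less RNA per cell cannot be told apart.

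The subunit transcripts were abundant and of unequal level, as the plot of subunits by library shows. The mean over the 8 libraries ran from 55.8 scaled TPM for *NDUFV3*, a small accessory subunit of the NADH-oxidising end, to 620.2 scaled TPM for *NDUFA3*, a small membrane-spanning accessory subunit next to ND1. The median subunit stood at 203 scaled TPM, against 10.1 for the median of all 13046 genes tested, and even the lowest member lay at the 84.2 percentile of those genes. Core subunits lay at both ends of the range: *NDUFS1*, which holds several iron-sulfur clusters, had a mean of 60.9 scaled TPM, and *NDUFV2*, its neighbour in the NADH-oxidising end, one of 377 scaled TPM. *NDUFA3* was the most abundant member in all 4 winter libraries and in summer replicates 1 and 2, but *NDUFB7* led in summer replicate 3 and *NDUFS4* in summer replicate 5.

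**Figure D1:**
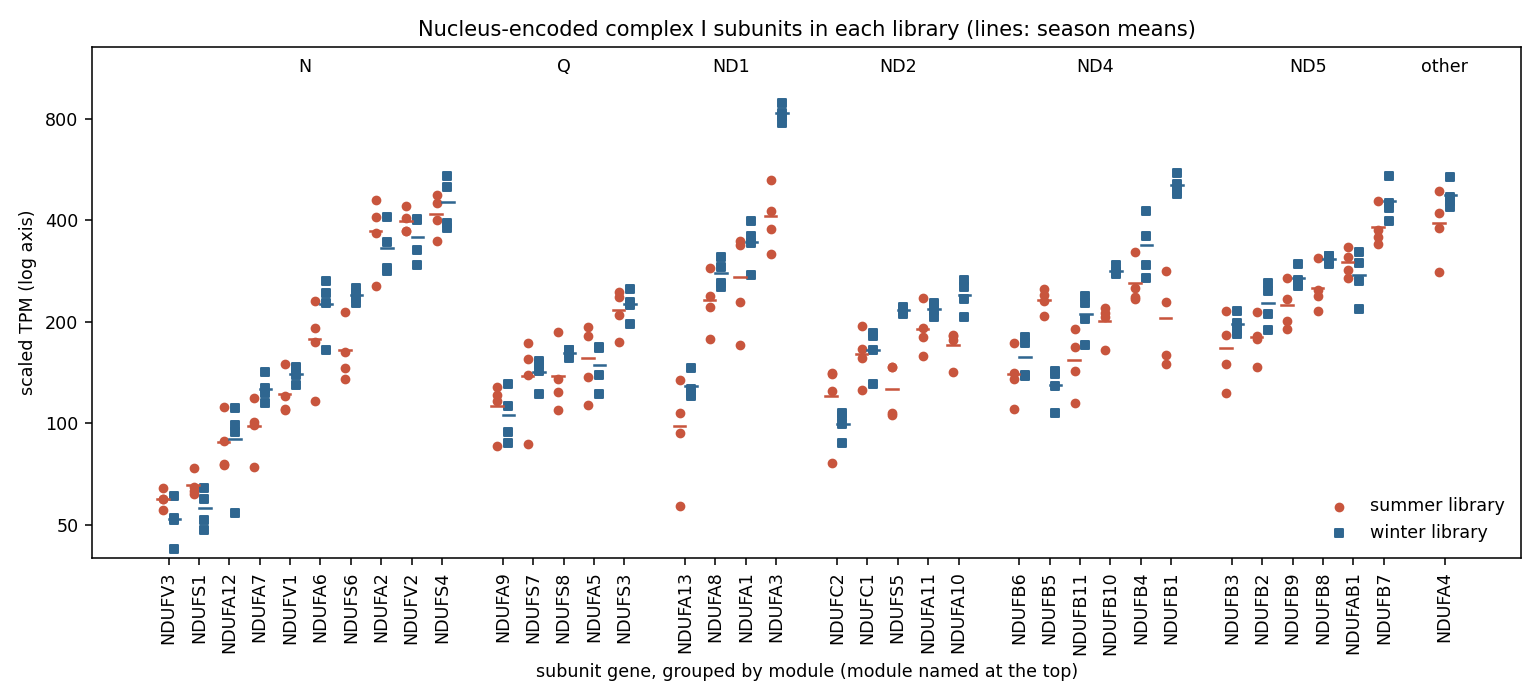
Level of 37 of the 38 nucleus-encoded complex I subunits in each library (vertical log axis, scaled TPM), grouped by module along the horizontal axis, with circles for summer libraries, squares for winter libraries and short lines for season means. All winter squares lie above all summer circles for *NDUFB1*, *NDUFA3*, *NDUFS5*, *NDUFS6*, *NDUFB10* and *NDUFA10*. For *NDUFB5* all summer circles lie above all winter squares.

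Between seasons, 8 of the 38 subunits passed the test, and they did so in both directions. *NDUFB5* alone was higher in summer, and 7 were lower, among them *NDUFB1*, *NDUFA3*, *NDUFS5*, *NDUFS6*, *NDUFB10* and *NDUFA10*, by limma on log2(scaled TPM + 1) at an adjusted p of at most 0.05. These counts are 2.63% and 18.4% of the members, beside 11.0% higher and 10.2% lower among all tested genes. Only *NDUFB1* and *NDUFA3* also passed a 2-fold change, both lower in summer, which is 5.26% of the members beside 6.67% of all tested genes, and none passed it upward, beside 6.14%. The same 8 genes (21.1% of the members) were those whose seasons did not overlap in any library, beside 24.3% of all tested genes, and for 7 of them every summer library lay below every winter library (background 11.3%). Over all members, 28 of 38 (73.7%) had a log2 fold change below 0, against 47.8% of all tested genes, and the median was -0.26 against 0.03.

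The other 30 subunits did not pass the test on scaled TPM. Their log2 fold changes lay between -0.46 and 0.23 with a lowest adjusted p of 0.0850 (limma). On that scale the 95% intervals of all 30 stayed within a 2-fold change either way, with bounds as far as -0.95 and 0.66. Counted over all 38 members, 34 had such an interval (46.6% of all tested genes). The median SE of the members was 0.16, against 0.27 for all genes. Without summer replicate 1 the number of subunits lower in summer was 4, with *NDUFS6* and *NDUFA10* among those that no longer passed. In that fit 1555 of 13143 tested genes passed in all. Without summer replicate 3 *NDUFC2*, an accessory subunit of the ND2 part, joined *NDUFB5* as higher (log2 fold change 0.44, limma adjusted p = 0.0340).

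The direction of the whole set depended on how libraries were scaled. In TPM as deposited, mitochondrial genes included, the median of all tested genes moved to 0.89, 25 subunits were higher in summer, beside 61.0% of all tested genes on that scale, and none lower, beside 1.86%, and the 6 subunits named as lower had positive log2 fold changes between 0.16 and 0.99. Without the trimmed-mean factor the median of all genes was 0.28, and 6 subunits were higher, beside 23.1% of all tested genes, and 3 lower, beside 6.83%. On that scale 28 members lay below the median of all genes, and in the deposited TPM 3 did, *NDUFB1* (0.16), *NDUFA3* (0.48) and *NDUFS5* (0.70). A factor per library shifts all genes alike on the log2 scale, except for the added 1, which weighs more on low TPM. The place of members relative to all genes in the deposited TPM therefore cannot be compared with that on the other scales. When the share of mitochondrial TPM was added as a covariate, 299 of all tested genes (2.29%) passed in place of 2767, and of the subunits *NDUFB1* and *NDUFA3* passed. The log2 fold changes of *NDUFB5* (0.78), *NDUFS5* (-0.76), *NDUFA10* (-0.64), *NDUFB10* (-0.62) and *NDUFS6* (-0.53) kept their direction in that fit, with adjusted p between 0.0571 and 0.187.

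**Figure D2:**
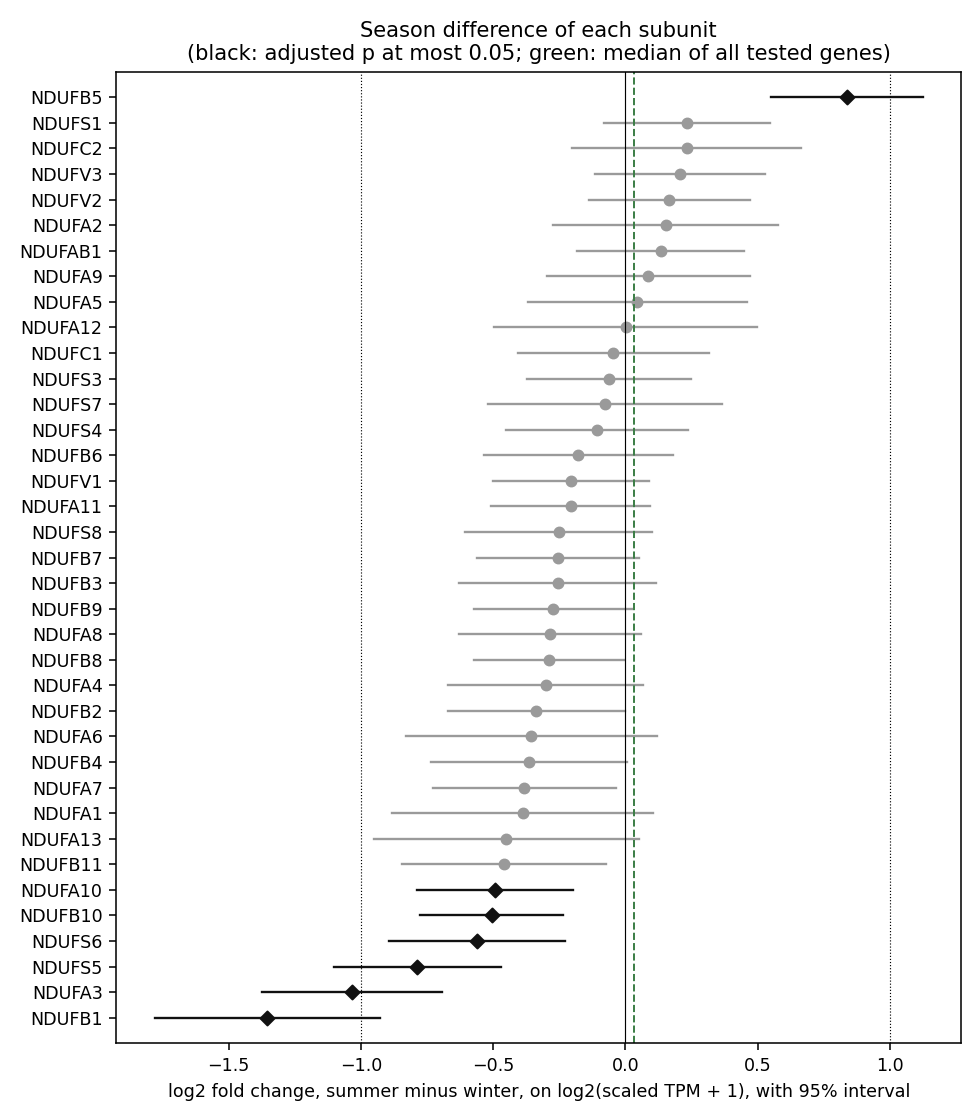
Log2 fold change of 37 of the 38 subunits, summer minus winter, on log2(scaled TPM + 1) (horizontal axis) with its 95% interval, ordered from highest to lowest. Black diamonds mark the 7 of these with an adjusted p of at most 0.05, the dotted lines a 2-fold change and the dashed line the median of all tested genes at 0.03. The 6 black diamonds on the left turned positive in the deposited TPM, where the median of all tested genes was 0.89.

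In the ND4 part of the membrane arm, members moved in opposite directions. *NDUFB5* (ENSBTAG00000002463), a membrane-anchored accessory subunit, gave, in the order of the replicate numbers listed above here and throughout, 229.8, 249, 208 and 240.3 scaled TPM in summer and 129, 143, 108 and 140.1 in winter. Every summer library lay above every winter library, at 232 ± 17.7 against 129.9 ± 16.1 (mean ± SD, n = 4 each), a log2 fold change of 0.84, SE 0.13, limma adjusted p = 0.00261. *NDUFB1* (ENSBTAG00000015156), among the smallest of the accessory subunits, showed the reverse with 159, 282, 149 and 228 scaled TPM in summer and 487, 554, 513 and 479 in winter. The winter libraries were tightly grouped and all above the summer ones, of which replicates 2 and 5 were the higher, and the means were 205 ± 62.2 against 508 ± 33.6, a log2 fold change of -1.35, SE 0.19, limma adjusted p = 0.00167. *NDUFB10* (ENSBTAG00000009534), which faces the intermembrane space, measured 206, 212, 165 and 219 scaled TPM in summer and 280.5, 281, 294 and 277 in winter. All 4 summer values were below the winter values, which differed little among themselves (log2 fold change of -0.51, SE 0.12, limma adjusted p = 0.0163), and the call was lost when replicate number entered as a block (adjusted p = 0.0737). *NDUFB6*, the lowest of this part over all libraries, ranged from 110.4 to 173 scaled TPM in summer and from 138 to 180.1 in winter, so that the seasons overlapped (log2 fold change of -0.18, SE 0.16, limma adjusted p = 0.467). *NDUFB4* and *NDUFB11*, also accessory subunits, did not pass the test, at log2 fold changes of -0.36 and -0.46.

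*NDUFB5* and *NDUFB1* belong to the same part of the enzyme, and their ratio within a library does not depend on any scaling between libraries. *NDUFB5* over *NDUFB1* was 1.44, 0.885, 1.39 and 1.05 in the summer libraries and 0.264, 0.259, 0.210 and 0.292 in the winter libraries, or 1.19 ± 0.269 against 0.256 ± 0.0343 (mean ± SD, n = 4 each). Ranked by level among the 38 members, *NDUFB1* was at places 23, 12, 19 and 16 in summer and at 2, 2, 3 and 3 in winter, while *NDUFB5* was at 11, 15, 10 and 11 in summer and at 32, 27, 34 and 29 in winter. The pair was chosen after its opposite changes had been seen, so the ratio is given as a description and was not tested.

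In the ND1 part, *NDUFA3* (ENSBTAG00000007754) led in level and in change. It measured 425, 526, 317 and 376 scaled TPM in summer and 816, 832, 777 and 892 in winter. The lowest winter library exceeded the highest summer library, and the means were 411 ± 88.4 against 829 ± 47.6 (± SD, n = 4 each), a log2 fold change of -1.03, SE 0.15, limma adjusted p = 0.00209. This value sat at the 2-fold boundary: without summer replicate 3, summer replicate 5 or winter replicate 5 it was -0.918, -0.999 and -0.998, each just short of 2-fold and each past the adjusted p. The other members of this part overlapped between seasons. *NDUFA13*, also known as GRIM-19 and the lowest of them, measured 108, 135, 57.1 and 93.7 scaled TPM in summer, where replicate 3 was far below the rest, and 127, 122, 120.4 and 146 in winter (log2 fold change of -0.45, SE 0.23, limma adjusted p = 0.1804). *NDUFA1*, a small membrane-anchored subunit, and *NDUFA8*, which lies on the intermembrane space side, had log2 fold changes of -0.39 and -0.28 and did not pass.

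In the ND2 part, *NDUFS5* and *NDUFA10* were lower in summer, 2 of 5 members, beside 10.2% of all tested genes. *NDUFS5* (ENSBTAG00000010232), an accessory subunit on the intermembrane space side, measured 107, 147, 106 and 147 scaled TPM in summer and 211, 222, 219 and 215 in winter. The winter libraries lay within a few percent of each other and above all summer libraries, which split into a lower pair (replicates 1 and 3) and a higher pair (replicates 2 and 5), with a log2 fold change of -0.79, SE 0.14, limma adjusted p = 0.00496. *NDUFA10* (ENSBTAG00000003279), a matrix-facing subunit with a nucleoside kinase fold, measured 182, 182, 142 and 176 scaled TPM in summer and 254, 266, 234 and 207 in winter (log2 fold change of -0.49, SE 0.13, limma adjusted p = 0.0257). Its seasons did not overlap, but summer replicate 3 was well below the other summer libraries, and the call was lost without summer replicate 1 (adjusted p = 0.0511), summer replicate 5 (0.0506), winter replicate 1 (0.0606) or winter replicate 3 (0.0587), and also when replicate number entered as a block (0.0873). *NDUFC2*, the lowest of this part, went the other way without passing, at 125, 141, 76.1 and 140.4 scaled TPM in summer and 107, 105, 99.7 and 87.6 in winter (log2 fold change of 0.23, SE 0.20, limma adjusted p = 0.427). Leaving aside summer replicate 3, each of its summer values was above each winter value.

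The N module, which binds NADH and holds the flavin, had 1 of 10 members past the test, beside 21.2% of all tested genes. *NDUFS6* (ENSBTAG00000009914), a zinc-binding accessory subunit, measured 135, 214, 146 and 162 scaled TPM in summer and 228, 252, 243 and 235 in winter (log2 fold change of -0.56, SE 0.15, limma adjusted p = 0.0245). Summer replicate 2 came close to the lowest winter library without reaching it. The call did not hold without summer replicate 1 (adjusted p = 0.0773), summer replicate 5 (0.0555), winter replicate 3 (0.0520) or winter replicate 5 (0.0556). *NDUFS4*, whose loss causes complex I deficiency in humans and mice, was the most abundant of the module at 401, 475, 346 and 449 scaled TPM in summer and 391, 539, 379.5 and 500.2 in winter, with wide overlap (log2 fold change of -0.11, SE 0.16, limma adjusted p = 0.658). *NDUFV3* was the least abundant at 59.7, 59.6, 64.3 and 55.3 in summer and 42.4, 60.9, 52.6 and 51.8 in winter (log2 fold change of 0.21, SE 0.15, limma adjusted p = 0.336). *NDUFV1*, which binds the flavin and NADH, and the cluster-bearing *NDUFV2* and *NDUFS1* had log2 fold changes of -0.21, 0.17 and 0.23, none past the test.

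In the Q module, the core subunit *NDUFS7*, which holds the last iron-sulfur cluster before ubiquinone, overlapped between seasons (log2 fold change of -0.08, SE 0.20, limma adjusted p = 0.818, 95% interval -0.52 to 0.36), as did the cluster-bearing *NDUFS8* (-0.25) and the core subunit *NDUFS3* (-0.06). *NDUFA9*, an accessory subunit that binds NADPH and is the lowest of the module, measured 121, 128, 85.5 and 116 scaled TPM in summer and 94.3, 131, 87.3 and 113 in winter (log2 fold change of 0.09, SE 0.17, limma adjusted p = 0.759). By module, the median log2 fold change was -0.05 for N, -0.07 for Q, -0.42 for ND1, -0.21 for ND2, -0.41 for ND4 and -0.26 for ND5, and these medians were not tested against each other.

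No member of the ND5 part, at the tip of the membrane arm, passed the test, and their log2 fold changes lay between -0.34 and 0.13. *NDUFB7*, the most abundant of them, measured 357, 456, 375 and 341 scaled TPM in summer and 436, 397, 541 and 451 in winter (log2 fold change of -0.26, SE 0.14, limma adjusted p = 0.213). *NDUFB3*, the least abundant of them over all libraries, measured 149.6, 215, 123 and 183 in summer and 198, 215, 184 and 189 in winter (log2 fold change of -0.26, SE 0.17, limma adjusted p = 0.304). *NDUFAB1*, the mitochondrial acyl carrier protein, which also serves fatty acid synthesis and iron-sulfur cluster assembly, had the only positive value of the part at 0.13. *NDUFA4* carries a complex I name but is counted with cytochrome c oxidase (complex IV) today. It measured 378, 489, 280.2 and 419.6 scaled TPM in summer and 469.6, 535, 438 and 455 in winter, with overlap between seasons (log2 fold change of -0.30, SE 0.17, limma adjusted p = 0.223).

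Expressed as a share of the summed TPM of all 38 subunits, a quantity free of scaling between libraries, single subunits differed between seasons. The 4 described first were picked for this difference. *NDUFB1* made up 2.09, 3.01, 2.35 and 2.83% of the sum in the summer libraries and 5.29, 5.52, 5.39 and 5.07% in the winter libraries, 2.57% ± 0.423 against 5.32% ± 0.191 (mean ± SD, n = 4 each). The share of *NDUFA3* was 5.21% ± 0.467 against 8.69% ± 0.581 and that of *NDUFS5* 1.62% ± 0.175 against 2.27% ± 0.0390, summer against winter. *NDUFB5* went the other way, with 3.02, 2.66, 3.27 and 2.98% in summer and 1.40, 1.43, 1.13 and 1.48% in winter. In these 4 subunits every summer share lay on the same side of every winter share. With libraries set to an equal sum over the 38 subunits, a scaling added after the data had been seen, 5 were higher in summer, beside 20.4% of all tested genes, and 3 lower, beside 6.20%. The 5 were *NDUFB5* (log2 fold change 1.13), *NDUFC2* (0.53), *NDUFS1* (0.52), *NDUFV2* (0.46) and *NDUFAB1* (0.43), and the 3 were *NDUFB1* (-1.06), *NDUFA3* (-0.74) and *NDUFS5* (-0.49). The median of all tested genes on this scale was 0.28, and of the 5 only *NDUFB5* also passed on scaled TPM. Shares add up to a fixed total, so lower shares of some members raise those of the others. Shares of 10 subunits were above winter in every summer library (background on that scale 22.4%) and those of 5 below (5.81%). *NDUFB10*, *NDUFA10* and *NDUFS6* were lower on the scaled TPM but did not pass on this scale, where their log2 fold changes were -0.21, -0.20 and -0.27.

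**Figure D3:**
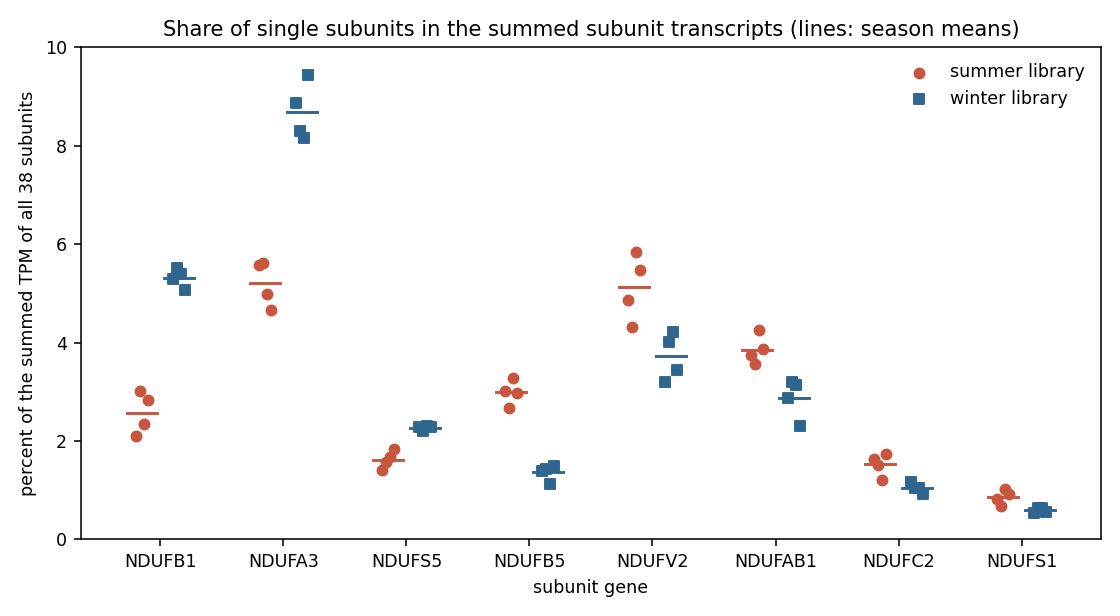
Share of 8 subunits in the summed TPM of all 38 (vertical axis, percent), with circles for summer libraries, squares for winter libraries and lines for season means. The 8 are those past the adjusted p with libraries set to an equal sum over the members, so they were picked for this difference. *NDUFA3* fell between 4.66% and 5.62% in summer and between 8.16% and 9.43% in winter.

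The summed level of the 38 subunits overlapped between seasons once mitochondrial transcripts were set aside. The sum was 0.832%, 0.952%, 0.760% and 0.911% of the non-mitochondrial TPM in summer and 0.860%, 0.896%, 0.827% and 0.868% in winter, with means of 0.864% ± 0.0854 and 0.863% ± 0.0282 (SD, n = 4 each). After the trimmed-mean factor the sums were 7848 ± 1243 scaled TPM in summer and 9551 ± 345 in winter, so that the difference between seasons entered with the factor. In the deposited TPM the order was the reverse, with 4101, 3011, 932 and 2030.3 in summer and 689.9, 1336, 949.6 and 912 in winter, and summer replicate 3 within the winter range. Summer libraries varied more: the median coefficient of variation of the members was 18.0% in summer and 10.3% in winter on scaled TPM, and 29 of 38 members varied more in summer. As shares of the set the medians were 9.60% and 11.1%. Summer replicate 2 was the highest summer library for 31 of the 38 members and summer replicate 3 the lowest for 31, and summer replicate 3 also had the largest mitochondrial share of its season.

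Complex I needs products of both genomes, and the balance of their transcripts was compared within each library. The 7 mitochondrially encoded subunits summed to 143947, 200602, 269650 and 249340 TPM in summer and to 314362, 289907, 285464 and 298505 TPM in winter. Per TPM of the 38 nuclear subunits this was 35.1, 66.6, 289 and 123 in summer and 456, 217, 301 and 327 in winter. The ratio averaged 128 ± 113 in summer and 325 ± 98.9 in winter, and the seasons overlapped because summer replicate 3 (289) exceeded winter replicate 3 (217). On the log2 scale the nuclear to mitochondrial ratio was 1.72 higher in summer, 1.24 without summer replicate 1 and 2.25 without summer replicate 3. Relative to non-mitochondrial RNA, ND4L (-2.53, adjusted p = 0.00632), ND3 (-3.03, adjusted p = 0.00896) and ND6 (-1.98, adjusted p = 0.0237) were lower in summer by limma, beside 10.2% of all tested genes, and the other 4 had log2 fold changes from -1.71 to -1.17 without passing. The 7 had a median of -1.71, and the other 6 mitochondrial protein-coding genes had one of -1.70. The shift between the genomes was thus not particular to complex I.

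**Figure D4:**
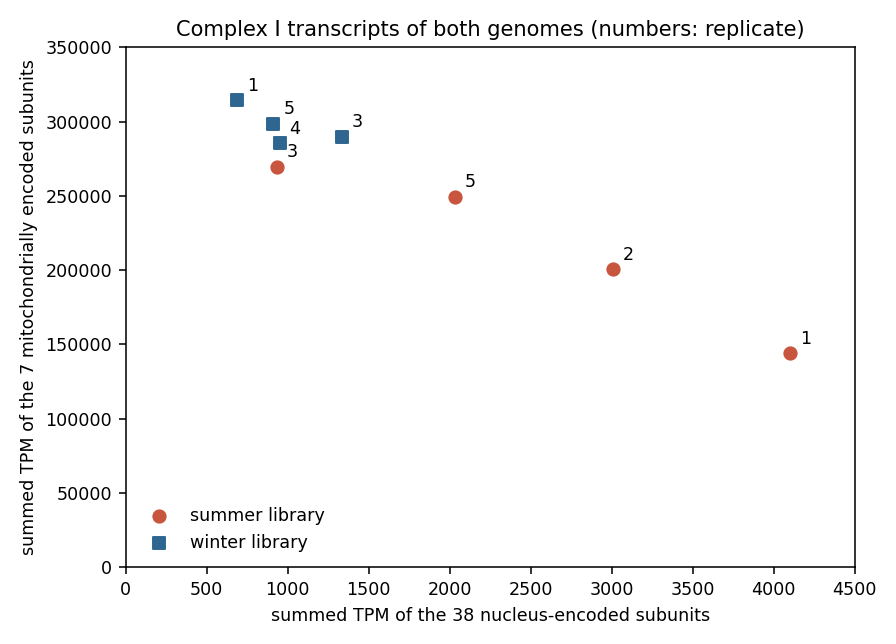
Summed TPM of the 38 nucleus-encoded complex I subunits (horizontal axis) and of the 7 mitochondrially encoded ones (vertical axis) in each library, with circles for summer, squares for winter and the replicate number beside each point. Both sums come from the same total of 1000000 TPM, so that a larger mitochondrial sum leaves less for nuclear genes. Summer replicate 3 (932 nuclear and 269650 mitochondrial TPM) sits next to the winter libraries.

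Genes that build complex I or work beside it did not all follow the subunits. Of 21 assembly factors, which guide the modules together and leave the finished enzyme, none was higher in summer, beside 11.0% of all tested genes. *FOXRED1* (log2 fold change of -0.74, SE 0.20, limma adjusted p = 0.0239) and *NDUFAF8* (log2 fold change of -0.56, SE 0.15, limma adjusted p = 0.0252) were lower in summer. These are 2 of 21, beside 10.2% of all tested genes, and the median log2 fold change of the list was 0.01. *FOXRED1* measured 12.2, 11.0, 9.94 and 14.2 scaled TPM in summer and 17.8, 17.9, 24.7 and 21.8 in winter, with winter above summer in every library. *NDUFAF8* measured 43.2, 51.5, 43.1 and 44.9 in summer and 71.8, 53.6, 74.3 and 73.1 in winter. Neither overlapped between seasons, but both calls were absent without summer replicate 1, and in 6 of the 8 fits without a single library fewer than 2 assembly factors were lower. Over those 8 fits the genes past in all ran from 1555 of 13143 to 2904 of 13412. At an unadjusted p under 0.05, 2 assembly factors were higher and 3 lower, and in the deposited TPM 14 were higher (61.0% of all tested genes) and none lower past the adjusted p. Of 3 genes for import into the intermembrane space, the route of several paired-cysteine subunits, the sulfhydryl oxidase gene *GFER* was lower (log2 fold change of -0.51, SE 0.16, limma adjusted p = 0.0419), beside 10.2% of all tested genes. Its partners *CHCHD4* (-0.03) and *AIFM1* (0.40) did not pass.

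Subunits of the other respiratory complexes that passed the test on scaled TPM were also mostly lower in summer. Of 37 tested nuclear subunits of complexes II to V, 16 were lower in summer, beside 10.2% of all tested genes, and 1 higher, beside 11.0%, with a median log2 fold change of -0.36. The 4 of smallest adjusted p were lower: *UQCR11* of complex III (-1.22, adjusted p = 0.000762), *COX7A1* of complex IV (-1.47, 0.000762), *ATP5ME* of ATP synthase (-1.87, 0.000762) and *COX5B* of complex IV (-0.999, 0.00119). *ATP5ME* measured 78.5, 106, 58.9 and 66.4 scaled TPM in summer and 345, 253, 280.4 and 242 in winter, a larger fold change than that of any complex I subunit. The exception was *UQCRFS1*, the Rieske iron-sulfur protein of complex III, at 376, 437, 349 and 377 scaled TPM in summer and 297, 289.9, 284 and 282 in winter (log2 fold change of 0.41, SE 0.11, limma adjusted p = 0.0262). Leaving out single libraries gave 9 to 14 lower and 0 to 2 higher. The 9 came without winter replicate 4, where 2511 of 13220 genes passed in all. The balance depended on scaling: without the trimmed-mean factor 7 were higher and 6 lower, beside 23.1% and 6.83% of all tested genes. In the deposited TPM 19 were higher (61.0% of all tested genes) and none lower (1.86%).

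Among 16 tested genes that feed electrons to ubiquinone, make it or carry electrons onward, *COQ3*, a methyltransferase of ubiquinone synthesis, was higher (log2 fold change of 0.57, SE 0.17, limma adjusted p = 0.0347) and *SQOR*, which oxidises sulfide and passes the electrons to ubiquinone, was lower (log2 fold change of -0.82, SE 0.19, limma adjusted p = 0.0153). The median of that list was 0.00, and among all tested genes 11.0% were higher and 10.2% lower. Of 12 regulators of mitochondrial biogenesis, *TFB2M*, a transcription factor of mitochondrial DNA, was higher at 30.03, 30.87, 24.21 and 29.92 scaled TPM in summer and 9.55, 17.9, 8.26 and 9.11 in winter (log2 fold change of 1.34, SE 0.24, limma adjusted p = 0.00469). *TFAM*, which packages mitochondrial DNA, did not pass at 0.76 on the log2 scale (adjusted p = 0.112), nor did *NRF1*, a nuclear regulator of respiratory genes, at 0.03 (adjusted p = 0.959). The list of regulators had a median of 0.28, with 1 of 12 higher and 0 lower, beside 11.0% and 10.2% of all tested genes.

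**Figure D5:**
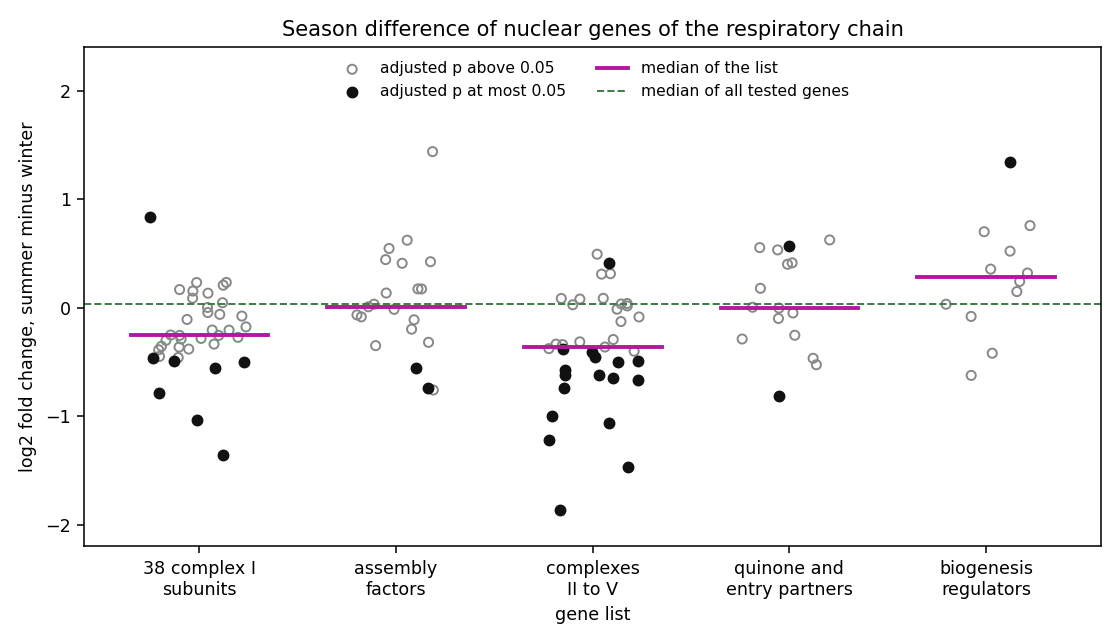
Log2 fold change, summer minus winter, on log2(scaled TPM + 1) (vertical axis) of each tested gene in 5 lists of nuclear respiratory genes, with filled points at an adjusted p of at most 0.05, thick lines at the list medians and a dashed line at the median of all tested genes (0.03). The medians were -0.26 for complex I subunits and -0.36 for complexes II to V but 0.01 for assembly factors. In the deposited TPM, not drawn here, the median of the subunits was 1.22 and that of all tested genes 0.89.

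The strand used in counting is not given, so that reads of genes overlapping on opposite strands could not be separated. By the RefSeq annotation ARS-UCD2.0, in which all 38 symbols were found, none of the subunits named as past the test overlaps another gene. The nearest tested gene moved the same way past the adjusted p for *NDUFS6* (*MRPL36*, -0.89) and *NDUFB10* (*RPS2*, -0.79). The neighbours of *NDUFB5* (*MRPL47*, 0.28), *NDUFB1* (*CPSF2*, 0.45), *NDUFA3* (*TFPT*, -0.51), *NDUFS5* (*AKIRIN1*, 0.41) and *NDUFA10* (*HDAC4*, -0.67) did not pass. The paralog *NDUFA4L2*, which the naming rule leaves out, stood at 51.2 ± 20.3 scaled TPM in summer and 55.6 ± 74.9 in winter, with winter replicate 4 at 168 and the other winter libraries at 15.9 to 22.7.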

How the data were processed

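The 8 libraries hold polyadenylated RNA of granulosa cells. Before deposition the authors computed TPM, with CLC Genomics Workbench per the methods, while the processing notes name bcl2fastq, Bowtie2 2.2.2, DESeq2 and the build ARS-UCD1.2. The same cows supplied both seasons, and p-values measure the spread between these pools. The depth of each library is not given, so no counting error was computed.

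For scaled TPM, 13 mitochondrial protein-coding genes were left out, the rest was set to 1000000 and divided by a trimmed mean of M-values (TMM) factor (30% of M and 5% of A trimmed). The filter kept 13046 genes whose zFPKM exceeded -3 in all 4 libraries of at least a single season. Season, as the only term, was tested on log2(scaled TPM + 1) with limma 3.58.1 (lmFit, eBayes with trend, R 4.3.3) and Benjamini-Hochberg adjustment over these genes. Log2 fold changes are summer minus winter, with 95% intervals. The fit was run on simulated data with as many genes raised as lowered in summer. That setting could not test how results depend on scaling between libraries. Figures were drawn with matplotlib 3.10.9.

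Described in full are members past the adjusted p, the highest and lowest member of each module, *NDUFA4*, and up to 4 genes of smallest adjusted p of other lists. Members, lists, tests and this rule were chosen with earlier results of these data known. A member that the rule selects is not reported here by name. Other genes named (*NDUFS1*, *NDUFS3*, *NDUFS7*, *NDUFS8*, *NDUFV1*, *NDUFV2*, *NDUFAB1*, *NDUFA1*, *NDUFA8*, *NDUFB4*, *NDUFB11*, *CHCHD4*, *AIFM1*, *TFAM*, *NRF1*, *LUM*, *EPCAM*, *ZP2*, *ZP3*, *GDF9*, the neighbours and *NDUFA4L2*) were added after values had been seen. Alternatives covered scaling, pseudocount, filter, variance model, library weights, replicate block, mitochondrial share and leaving out each library, 22 in all.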

Additional observations from a re-analysis of the deposited data

Results flagged for a closer look

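Among 84 groups of 4 libraries, a single value stood apart from the rest of its group: *NDUFA10* in summer, where summer replicate 3 had 142.3 scaled TPM and the other summer libraries 176 to 182. The gap to the nearest library was 0.851 of the group's range, above the 95% critical value for 4 libraries. Chance alone marks about 1 in 20 such groups. Summer replicate 3 was the lowest summer library for 31 of the 38 subunits, and without it *NDUFA10* had a log2 fold change of -0.41.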

How the results depend on the processing

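Median-of-ratios factors, 2 other pseudocounts, 2 other filters and leaving out 2 further mitochondrial RNA genes kept the 8 subunits past the test. Scaling mattered most. Apart from the effect of the added 1 named next, the causes of the shifts below were not tested. In deposited TPM, 25 subunits were higher (61.0% of all tested genes) and 0 lower (1.86%), all 25 at 2-fold (42.4%), with a median of 1.22, 0.33 above that of all genes. Without the TMM factor the median lay 0.24 below that of all genes. A factor per library moves members and other genes alike, so this turn entered with the added 1, which shrinks changes at low TPM. The 0.33 is thus not a rise of the subunits beyond that of other genes. Log2 fold changes turned positive for *NDUFA10* (0.99), *NDUFA3* (0.48), *NDUFB10* (0.99), *NDUFS6* (0.93), *NDUFS5* (0.70), *NDUFB1* (0.16), *NDUFA4* (1.197), *NDUFS4* (1.39), *NDUFA13* (1.02), *NDUFB6* (1.29), *NDUFB7* (1.24) and *NDUFB3* (1.22). There, 14 assembly factors and 19 genes of complexes II to V were higher and 0 lower. Without the TMM factor, 6 subunits were higher and 3 lower (1 and 1 at 2-fold), beside 23.1% and 6.83% of all tested genes past the adjusted p. The median was 0.036, and *NDUFS4* (0.18), *NDUFB6* (0.11), *NDUFB7* (0.037) and *NDUFB3* (0.036) turned positive. Counts in that fit were 3 and 0 for assembly factors and 7 and 6 for complexes II to V. With an equal sum over the 38 members, chosen after seeing the data, 5 were higher and 3 lower (1 and 1 at 2-fold), beside 20.4% and 6.20% of all tested genes past the adjusted p. The median was 0.040, and *NDUFS4* (0.19), *NDUFB6* (0.12), *NDUFB7* (0.040) and *NDUFB3* (0.039) turned positive. That scaling gave 3 and 0 assembly factors and 5 and 5 genes of complexes II to V. Quantile normalization gave 9 lower subunits and 2 higher genes of complexes II to V, with 2699 of 13046 genes past in all. Without an eBayes trend (2472 genes past in all), 3 subunits were lower, with 1 assembly factor lower and 0 higher and 9 lower genes of complexes II to V. Library weights (3578 genes past in all) left 1 subunit lower at 2-fold and gave 2 higher assembly factors and 2 higher genes of complexes II to V. With the mitochondrial share as covariate, 299 of 13046 genes passed in all, 0 subunits were higher and 2 lower while *NDUFB5* (0.78), *NDUFS5* (-0.76), *NDUFA10* (-0.64) and *NDUFB10* (-0.62) did not pass, *NDUFA9* (-0.15) and *NDUFC2* (-0.025) turned negative, 0 assembly factors were lower, and 0 and 5 genes of complexes II to V were higher and lower.

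Same-numbered libraries deviated together only weakly (r 0.04, 0.16 and 0.11 for numbers 1, 3 and 5), and pool membership is not given, so the numbers were not taken to pair libraries. With the replicate number as a block, 1 subunit was higher and 4 were lower, beside 6.67% and 7.04% of all tested genes in that fit. *NDUFB10* (adjusted p = 0.0737) and *NDUFA10* (0.0873) were among the subunits that did not pass, and *NDUFA9* turned negative (-0.065). Assembly factors counted 1 higher and 0 lower, and complexes II to V 0 and 10. In both seasons the libraries numbered 3 and 5 correlated best with their own number. Summer replicate 1 did too, but winter replicate 1 correlated best with summer replicate 2.

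Leaving out each library gave 1 to 2 higher and 4 to 7 lower subunits, 1 to 2 lower at 2-fold, medians of -0.38 to -0.16 (-0.42 to -0.19 relative to all genes), 0 to 2 higher and 0 to 2 lower assembly factors, 0 to 2 higher and 9 to 14 lower genes of complexes II to V, and a nuclear to mitochondrial log2 ratio difference of 1.24 to 2.25. The number of all genes past the test changed too. It ran from 1555 of 13143 without summer replicate 1 (4 lower subunits) to 2904 of 13412 without summer replicate 3 (7 lower subunits). The depth is unknown, so no limit from counting was computed.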
